A study of Gallus gallus with 3 samples.

Results

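The selection of a hen's follicle was examined by setting granulosa cells of F5 follicles against granulosa cells of 6 mm follicles. Both are RNA sequencing libraries of Gallus gallus ovary, and they are 2 of the 3 libraries of the series. The F5 library came from hens of 10 to 16 months and holds cells of an early follicle of the preovulatory hierarchy, which grows fast. The 6 mm library came from hens of 10 to 15 months and holds cells of follicles of 6 mm in diameter, not yet selected. The third library, of F1 follicles before ovulation from hens of 10 to 17 months, is used only to give the level of some genes at a later stage. The upper ages of 15, 16 and 17 months step by 1 from label to label and could not be checked. The labels call the cells natural granulosa cells and give no treatment, genotype or breed. The sources used here do not say how many hens or follicles were pooled, and each stage had 1 library, so no difference below has a replicate check or a test.

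Granulosa cells form the epithelial layer next to the oocyte, and in the hen they lie inside a basal lamina that separates them from the theca. A small follicle that is selected joins the hierarchy of yolk-filled follicles, and its granulosa cells begin to make progesterone in response to gonadotropins. The granulosa layer of a follicle before selection is thin and is known for anti-Müllerian hormone and little steroid output.

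Levels are FPKM, which are read numbers per length of the gene and relative to the library's total. The totals recovered from the values were 14137511 reads for F5 and 14923359 for 6 mm. Of 19309 genes in the files, 12611 reached an FPKM of 1 in F5, in 6 mm or in both and were compared by the difference of log2(FPKM + 1), which understates the difference of low genes. A gene is called 2-fold higher or lower where this difference is at least 1, and 4-fold where it is at least 2. By this measure F5 had 964 genes (7.64%) past 2-fold on the higher side and 1356 (10.8%) on the lower side, in all 18.4%. Past 4-fold there were 263 (2.09%) higher and 247 (1.96%) lower, in all 4.04%. With both libraries scaled to the same large round sum of FPKM the 2-fold split was 943 higher and 2412 lower, and at the geometric mean of their sums, chosen after seeing the data, 754 higher and 1794 lower. After median-ratio scaling the split was nearly even, with 1144 higher and 1166 lower. Bracketed ranges are exact 95% intervals of the FPKM ratio that cover counting error only.

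Genes at least 2-fold higher held 22.8% of the F5 reads and 5.68% of the 6 mm reads, and those at least 2-fold lower held 2.26% of the F5 reads and 22% of the 6 mm reads. Of this 22%, ENSGALG00000027090 alone made up 14.3%, and the other 1355 lower genes held 7.73% of the 6 mm reads. In the tenth of genes with the highest mean level, 134 were higher and 68 lower. In the tenth with the lowest level, 148 were higher and 296 lower. Reads in F5 and none in 6 mm were found for 60 genes, of which 2 reached an FPKM of 10. Reads in 6 mm and none in F5 were found for 136 genes, of which 11 reached it. The 10 most abundant genes held 14.4% of the F5 reads and 22.7% of the 6 mm reads.

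**Figure D1:**
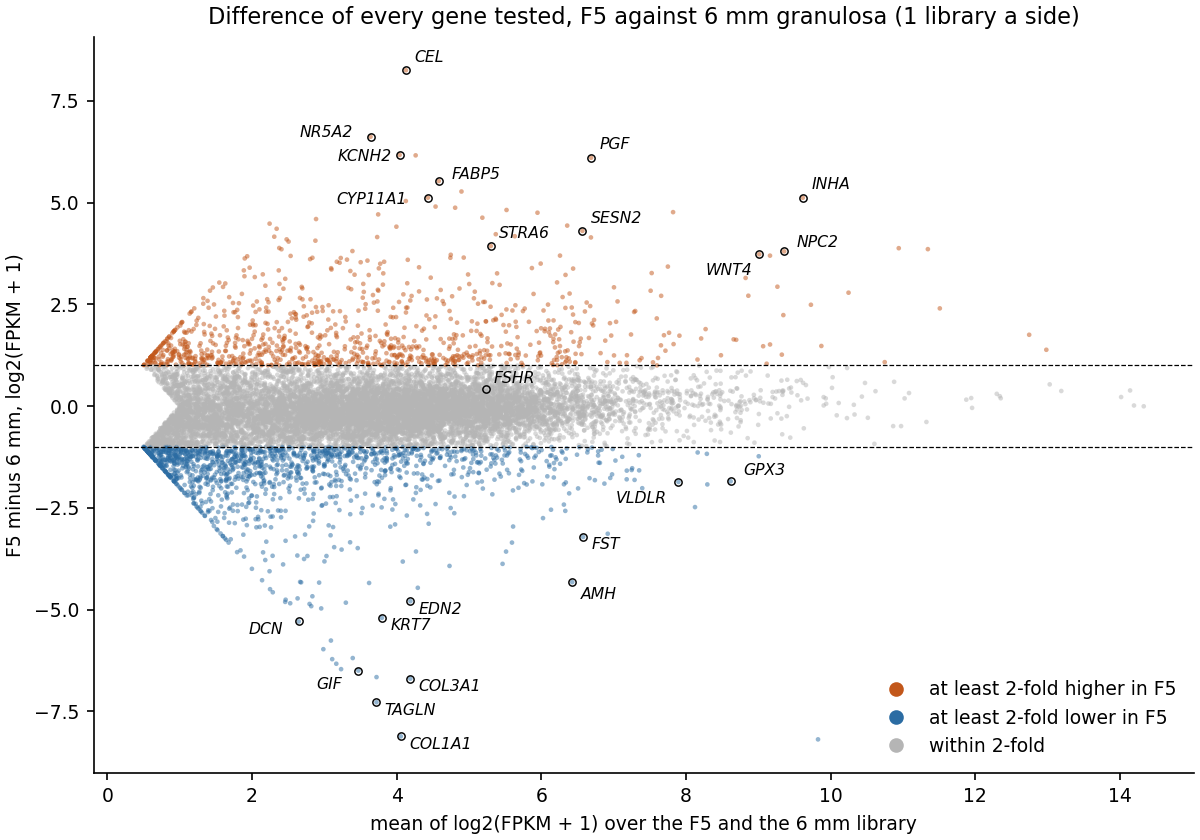
Difference of log2(FPKM + 1), F5 minus 6 mm, on the vertical axis against the mean level over both libraries on the horizontal axis, 1 point per gene for all 12611 genes compared. Dashed lines mark 2-fold; CEL, NR5A2, KCNH2 and PGF lie at the top, COL1A1, TAGLN and COL3A1 at the bottom, and FSHR lies within 2-fold.

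The 17 granulosa marker genes compared all had reads in both libraries. Their list includes genes of follicle selection, such as CYP11A1, STAR, INHA and AMH, and was chosen with earlier results of these data known. The difference of the list between the stages therefore does not check the cell label. In F5, 11 of the 17 markers (64.7%) were at least 2-fold higher and 2 (11.8%) lower, against 7.64% and 10.8% over all genes. The lower share is thus close to that over all genes. The median difference of the list was 2.32 against -0.13 over all genes. FOXL2, a transcription factor of granulosa identity, stood at 967 FPKM in F5 and 675 in 6 mm. FSHR, the receptor of follicle-stimulating hormone, stood at 42.4 in F5 and 31.5 in 6 mm. On the higher side were genes of the steroid pathway, the inhibin subunits, the egg coat genes ZPD and ZP3 and WNT4, and on the lower side AMH and FST. NR5A1, the steroidogenic factor of gonads and adrenals, was at 323 in F5 against 53.5 in 6 mm, 6.05-fold higher (5.80 to 6.31).

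Other genes known for follicle selection were set side by side. INHBB, an inhibin beta subunit, stood at 893 in F5 and 321 in 6 mm, and HSD3B2, which makes progesterone, at 487 in F5 and 67.3 in 6 mm. ID1, ID2 and ID3, inhibitors of differentiation that BMP signals induce, were at 115, 424 and 127 in F5 against 31.3, 191 and 39.6 in 6 mm, each past 2-fold. Within 2-fold were LHCGR, the receptor of luteinizing hormone, at 12.6 in F5 and 9.58 in 6 mm, KITLG, a growth factor of granulosa cells for the oocyte, at 2.33 in F5 and 2.76 in 6 mm, CCND2, a cyclin of the G1 phase, at 22.9 in F5 and 27.9 in 6 mm, and OCLN, a tight junction protein, at 4.63 in F5 and 9.28 in 6 mm.

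In each list of markers of other cell types, most of the genes compared were lower in F5. Over all genes 7.64% were higher and 10.8% lower. Members below an FPKM of 1 in both libraries are not counted. A member with no reads in F5 was compared only through its level in 6 mm, so its direction was fixed by the filter. The theca and smooth muscle list had 14 of 20 genes past 2-fold lower and 0 higher, with a summed level of 36.0 FPKM in F5 and 1051 in 6 mm. COL1A1, DCN, LUM and PDGFRA of that list had no reads in F5. In 6 mm, COL1A1 and DCN stood at 276 and 38.2, and LUM at only 5.49. The COL1A1 entry covers only positions 5 to 396 of an unplaced scaffold, and COL1A2 kept 10.5 FPKM in F5 against 168 in 6 mm. Endothelial markers had 6 of 11 lower and 0 higher (summed level 75.01 in F5 and 142 in 6 mm), and leukocyte markers 7 of 11 lower and 1 higher (51.8 in F5 and 219 in 6 mm). Of the oocyte and germ cell genes 12 of 14 were lower and 0 higher (60.7 in F5 and 310.1 in 6 mm), with ZP2, an egg coat glycoprotein, at 33.4 in F5 and 183 in 6 mm. Surface epithelium markers had 7 of 11 lower and 2 higher (411 in F5 and 287 in 6 mm, of which LRRN4 alone was 381 in F5). The keratins KRT8 and KRT18 had no reads in F5. Of 9 erythrocyte markers in the files only 3 were compared, and 2 of these were lower (2.09 in F5 and 11.2 in 6 mm). In these bulk libraries, fewer cells of a type and less RNA per cell cannot be told apart. The part of these other cell types in the lower matrix, vascular, immune, protease and keratin genes given below was not tested. Leaving out only the listed marker genes of other cell types kept 12538 of 12611 genes, with 961 higher and 1305 lower past 2-fold. Other genes of those cell types stayed in, so these counts do not measure the part of those cells.

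**Figure D2:**
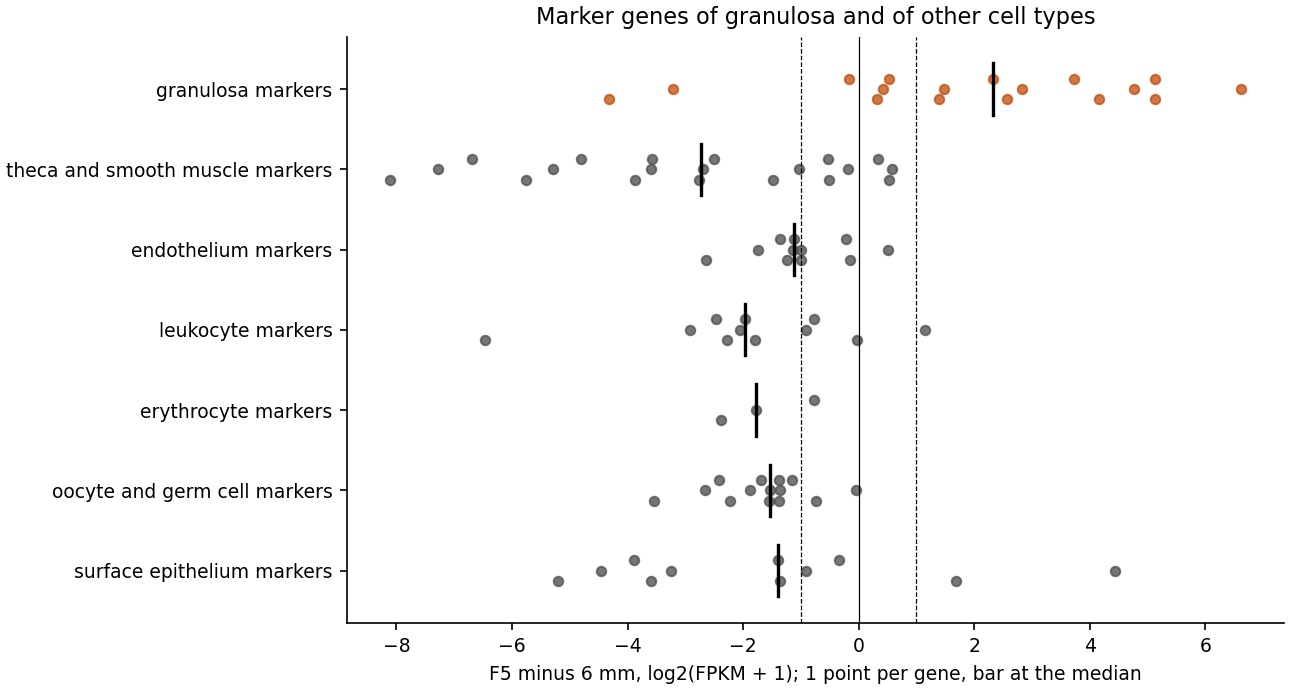
Difference of log2(FPKM + 1), F5 minus 6 mm, of each marker gene compared, 1 point per gene, with a bar at the median of its list and dashed lines at 2-fold. Granulosa markers have a median of 2.32 and spread from AMH on the left to NR5A2 on the right, and every other list has a median below -1.

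The largest differences towards F5 took in lipid enzymes, channels, signalling proteins and secreted factors. CEL, a bile salt-activated lipase (chromosome 17, 6773214 to 6778591, on a genome build that the sources do not name), had 305 FPKM in F5 and no reads in 6 mm. Against a floor of 3 reads in 6 mm it was 2673-fold higher, and the lower limit of its exact interval was 2173. KCNH2, a voltage-gated potassium channel, was at 139 in F5 against 0.936 in 6 mm, 148-fold higher (106 to 214.5). SPTSSB, a small subunit of serine palmitoyltransferase, which starts sphingolipid synthesis, stood at 22.0 in F5 and 0.117 in 6 mm. The ratio of SPTSSB, 187, has an interval of 63.6 to 909 because few reads lie behind the 6 mm value. LOXL1, which cross-links elastin and collagen, was at 320 in F5 against 10.9 in 6 mm, 29.4-fold higher (25.2 to 34.4). PLCG1, a phospholipase C that acts downstream of growth factor receptors, was at 180 in F5 against 6.31 in 6 mm, 28.6-fold higher (25.7 to 31.8). P2RX2, an ATP-gated ion channel, was at 210 in F5 against 10.7 in 6 mm, and SESN2, a stress-induced inhibitor of mTORC1 signalling, was 20.7-fold higher at 422 in F5 against 20.3 in 6 mm (18.4 to 23.5). All of these stood at 20.3 FPKM or less in 6 mm. ENTPD8L and AADACL2, at 184 and 99.3 in F5 against 3.79 and 2.04 in 6 mm, take their symbols from the files' KEGG text, so their names are uncertain. The same holds for COL1A1, FDX1, ALDH1A3, PTHLH, P2RY6, VLDLR, SULF1, ID1 and ID3.

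Further genes near the top were of varied function. PLEKHA6, a protein of cell junctions, stood at 72.6 in F5 and 2.46 in 6 mm. FLVCR2, a membrane transporter of the heme carrier family, was at 29.1 in F5 and 0.794 in 6 mm, EMP1, a membrane protein of epithelia, at 38.2 in F5 and 1.79 in 6 mm, and ABHD3, a phospholipase, at 19.97 in F5 and 0.169 in 6 mm. On the other side, the genes furthest below in F5 included those of collagens, smooth muscle proteins and keratins. TGM2, which cross-links proteins, was at 0.387 in F5 against 42.5 in 6 mm, 110-fold lower (66.4 to 197). AQP1, a water channel abundant in endothelium and red cells, was at 0.288 in F5 and 36.4 in 6 mm, F13A1, a clotting transglutaminase found in macrophages and platelets, at 0.0764 in F5 and 29.9 in 6 mm, and MGP, an inhibitor of matrix calcification, at 0.420 in F5 and 27.3 in 6 mm. GLUL, glutamine synthetase, was 47.9-fold lower at 0.693 in F5 against 33.2 in 6 mm (31.2 to 77.7). VAT1L, a gene of little known function, kept 5.81 in F5 against 103 in 6 mm. CAV1, the coat protein of caveolae, had no reads in F5 and 22.8 FPKM in 6 mm. Against the same floor in F5 it was 64.7-fold lower, and the lower limit of its exact interval was 52.2.

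**Figure D3:**
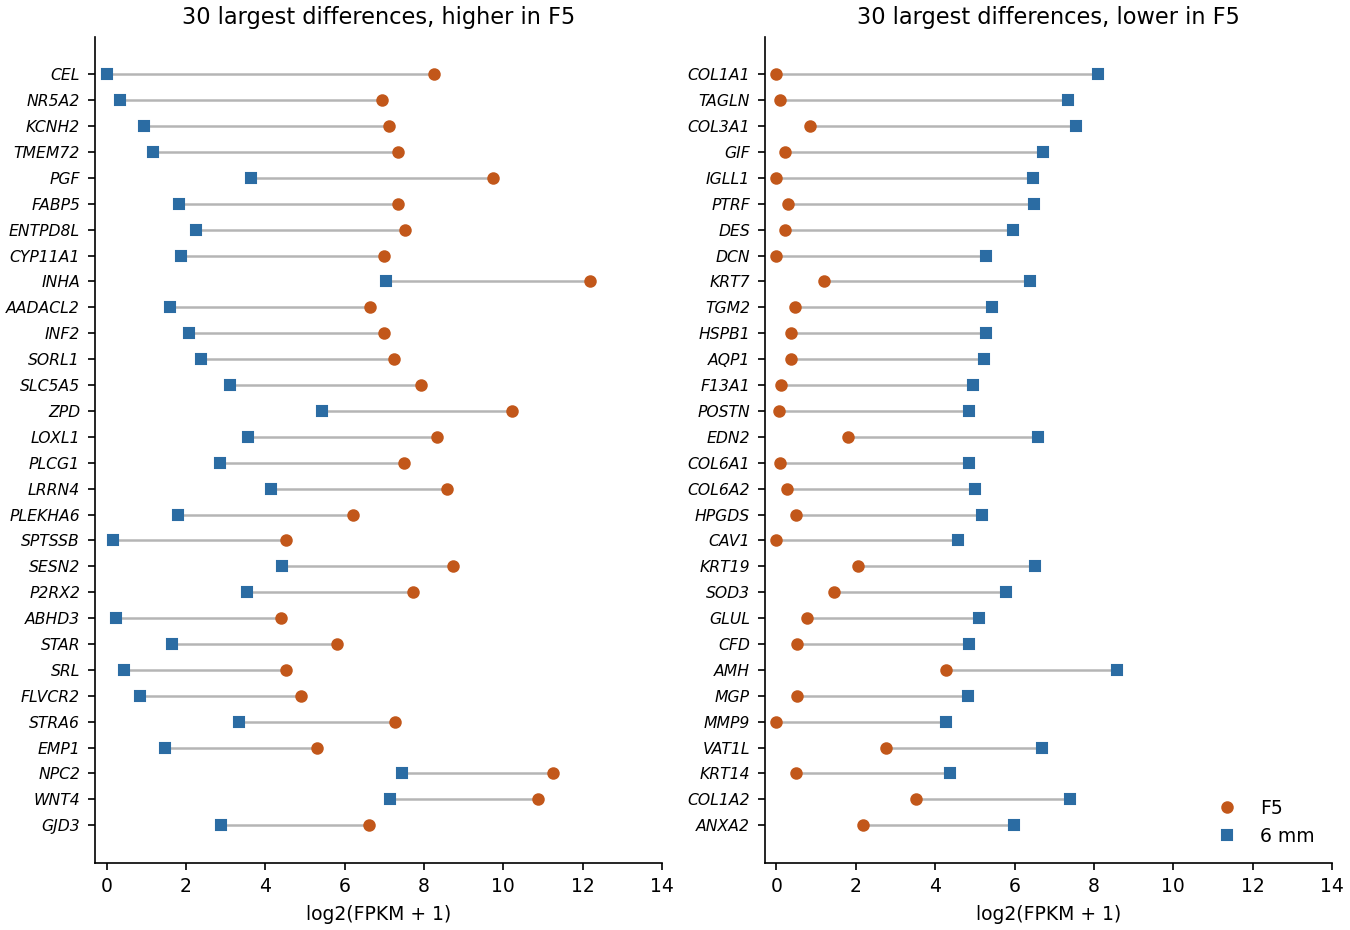
Levels as log2(FPKM + 1) of the 30 named genes that differed most in each direction and reached an FPKM of 10 in the higher library. Circles are F5 and squares 6 mm; most genes lower in F5 lie near 0 there, while INHA, NPC2, WNT4 and ZPD of the higher side are abundant in both libraries.

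Steroid genes did not move as a block. Of 28 genes, 7 (25%) were higher in F5 by 2-fold or more and 5 (17.9%) lower. The median of 0.07 changed sign under 3 of 5 scalings. Over all genes 7.64% were higher and 10.8% lower, which is the background for this list and those below. The higher ones were the front of the progesterone route and its activators. CYP11A1, the side-chain cleavage enzyme (chromosome 10, 2056283 to 2064888), was at 126 in F5 and 2.65 in 6 mm, and FDX1, the ferredoxin that passes electrons to it, at 13.4 in F5 and 4.75 in 6 mm. Enzymes that handle oestrogens, androgens and bile acid precursors were on the lower side. HSD17B1, which reduces oestrone, was at 38.3 in F5 against 131.5 in 6 mm, 3.43-fold lower (3.05 to 3.88). AKR1D1, a steroid 5-beta-reductase, was at 9.09 in F5 and 52.5 in 6 mm, and HSD17B2, which inactivates sex steroids, at 0.710 in F5 and 12.5 in 6 mm.

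Retinoic acid is made from vitamin A by ALDH1A enzymes and broken down by CYP26 enzymes, and STRA6 takes up retinol from its carrier. Of 18 genes, 3 were higher in F5 by 2-fold or more and 5 lower (median -0.47). STRA6 was at 153 in F5 against 9.08 in 6 mm, 16.9-fold higher (15.1 to 18.8). CYP26A1 was at 60.9 in F5 against 4.12 in 6 mm, 14.8-fold higher (12.8 to 17.1), and CYP26C1 at 6.88 in F5 and 0.528 in 6 mm. The third enzyme of breakdown, CYP26B1, went the other way at 2.09 in F5 and 6.64 in 6 mm. The synthesis enzyme ALDH1A2 was at 0.442 in F5 against 6.71 in 6 mm, 15.2-fold lower (9.29 to 26.4), and ALDH1A3 was at 0.252 in F5 and 8.19 in 6 mm. RBP5, a retinol-binding protein of cells, was at 0.572 in F5 and 7.41 in 6 mm.

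Nuclear receptors had 6 of 28 members at least 2-fold up in F5 and 2 at least 2-fold down (median 0.35). ESRRB, an orphan receptor related to the oestrogen receptors, stood at 33.6 in F5 and 1.85 in 6 mm, VDR, the vitamin D receptor, at 23.9 in F5 and 8.18 in 6 mm, and NR3C2, the mineralocorticoid receptor, at 3.33 in F5 and 11.1 in 6 mm. Of 59 developmental transcription factors, 5 (8.47%) were higher, close to the 7.64% over all genes, and 18 (30.5%) lower (median -0.56). The higher ones included DMRT1, the Z-linked gene of avian testis determination, and its relative DMRT2, at 9.61 and 15.3 in F5 against 0.980 and 0.859 in 6 mm, and the transcription factor MAF at 61.1 in F5 and 16.2 in 6 mm. WT1, a regulator of gonad development, was at 2.21 in F5 against 31.7 in 6 mm, 14.3-fold lower (11.8 to 17.4). KLF15 was at 3.85 in F5 and 26.4 in 6 mm, RUNX2 at 2.49 in F5 and 12.01 in 6 mm, and TBX20 at 4.12 in F5 and 14.7 in 6 mm. ETS1 and ETS2, growth factor-responsive factors, were at 5.67 and 4.28 in F5 against 14.4 and 11.96 in 6 mm.

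Among hormones, their receptors and other peptide signals, 8 of 33 genes were at least 2-fold higher and 6 lower, and the median of -0.00 changed sign under 2 of 5 scalings. The list holds a few ligands, of which RLN3, a relaxin family peptide whose symbol comes from the KEGG text (chromosome Z, 27483980 to 27486468), was at 6712 in F5 against 1268 in 6 mm, 5.29-fold higher (5.20 to 5.38). PTHLH, a peptide related to parathyroid hormone, was at 64.8 in F5 and 18.8 in 6 mm. Receptors with high F5 levels were P2RY6, a receptor of UDP, at 96.4 in F5 against 9.33 in 6 mm (10.3-fold, 8.78 to 12.2), and the adhesion receptors ADGRG1, at 277 in F5 and 81.1 in 6 mm, and ADGRG2, at 31.7 in F5 and 2.49 in 6 mm. S1PR1, a receptor of sphingosine 1-phosphate, was lower at 17.0 in F5 and 36.0 in 6 mm. The insulin-like growth factor system had 4 of 19 genes higher and 3 lower, and its median of -0.00 changed sign under 2 scalings. IGF2 was at 131 in F5 against 50.2 in 6 mm, 2.62-fold higher (2.46 to 2.78), and STC1, stanniocalcin, at 55.5 in F5 against 11.8 in 6 mm. IGFBP5, a binding protein, was at 35.5 in F5 and 81.4 in 6 mm, and HTRA1, a protease that cuts such proteins, at 0.362 in F5 and 16.4 in 6 mm.

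Of 30 genes of fibroblast and other growth factors, 2 (6.67%) were higher in F5 by 2-fold or more and 12 (40%) lower (median -0.90). The shares over all genes were 7.64% and 10.8%. NGFR, the low-affinity neurotrophin receptor, was at 10.3 in F5 against 62.9 in 6 mm, 6.12-fold lower (5.67 to 6.62), and NTRK2, another neurotrophin receptor, was higher at 6.71 in F5 and 1.49 in 6 mm. The receptors FGFR2 and FGFR4 were at 1.26 and 2.51 in F5 against 5.003 and 6.82 in 6 mm. RET, a receptor of glial-derived factors, was at 0.605 in F5 and 7.92 in 6 mm, and NOV, a matricellular protein, at 0.899 in F5 against 23.4 in 6 mm (26.0-fold lower, 18.0 to 39.1). In the list of angiogenic and hypoxia genes 2 of 29 (6.9%) were higher and 13 (44.8%) lower (median -0.77). The higher ones were the ligands PGF, at 855 in F5 and 11.4 in 6 mm, and VEGFA, at 152 in F5 and 54.1 in 6 mm. The vasoconstrictor EDN1 was at 4.76 in F5 against 42.1 in 6 mm, 8.86-fold lower (7.49 to 10.5). EDN2, which is not in this list, was at 2.47 in F5 against 95.2 in 6 mm, 38.6-fold lower (31.5 to 47.8). ANGPTL4, a secreted inhibitor of lipoprotein lipase, was at 6.99 in F5 and 58.2 in 6 mm. Hedgehog genes had 3 of 14 higher and 0 lower (median 0.24). They were the ligand IHH, 3.11-fold higher at 728 in F5 against 235 in 6 mm (2.98 to 3.23), the secreted SCUBE3, at 85.5 in F5 and 18.9 in 6 mm, and SCUBE2.

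**Figure D4:**
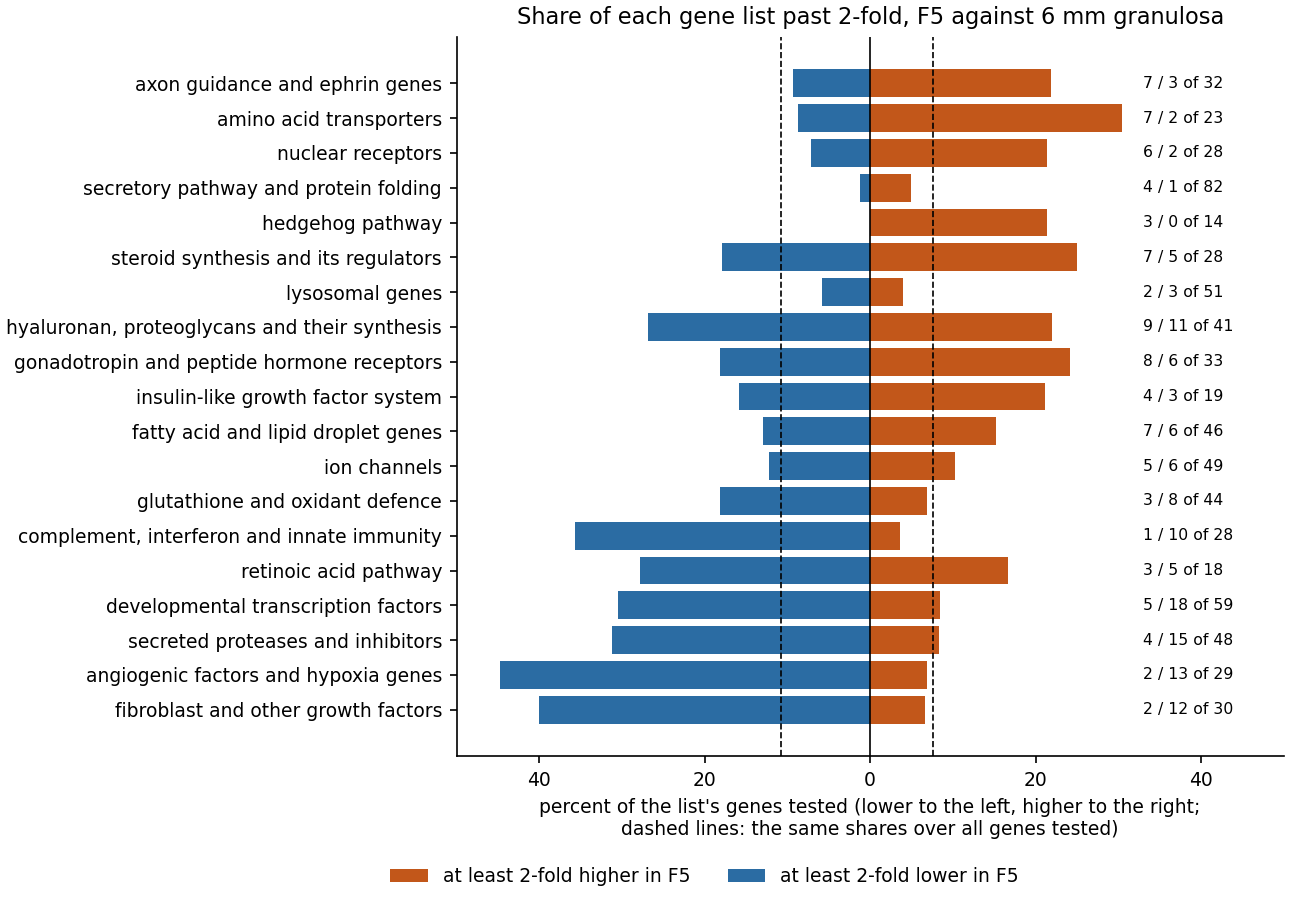
Percent of the genes of each list at least 2-fold higher (right) or lower (left) in F5, with counts beside the bars as higher / lower of all compared, and dashed lines at the shares over all genes, 7.64% higher and 10.8% lower. Angiogenic and growth factor lists extend furthest to the left and amino acid transporters furthest to the right.

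Of 46 genes of fatty acids and lipid droplets 7 were higher in F5 by 2-fold or more and 6 lower (median -0.16), against 7.64% and 10.8% over all genes, and 33 lay within 2-fold. FABP5 and FABP4, carriers of fatty acids, were at 162 and 42.6 in F5 against 2.52 and 3.54 in 6 mm, while FABP3 and FABP7 were at 3.18 and 5.05 in F5 against 18.4 and 18.1 in 6 mm. MGLL, a monoglyceride lipase, was at 88.7 in F5 and 11.8 in 6 mm, and ACACB, a mitochondrial acetyl-CoA carboxylase, at 59.1 in F5 and 9.54 in 6 mm. LPL, lipoprotein lipase, was lower at 72.1 in F5 and 147 in 6 mm. The list leaves out VLDLR, the receptor by which hen oocytes take up yolk lipoproteins. VLDLR was at 124 in F5 against 454 in 6 mm, 3.66-fold lower (3.56 to 3.76). Among 51 lysosomal genes 2 (3.92%) lay higher and 3 (5.88%) lower, both below the shares over all genes. Their median was 0.01 and changed sign under 3 scalings. The higher 2 were abundant. NPC2, which binds cholesterol in the lysosome, was at 2452 in F5 and 175 in 6 mm, and CTSA, protective protein/cathepsin A, at 3197 in F5 against 462 in 6 mm (6.92-fold, 6.80 to 7.05). NPC1, the membrane partner of NPC2, was at 207 in F5 and 469 in 6 mm.

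Amino acid transporters had 7 of 23 members at least 2-fold up in F5 and 2 at least 2-fold down (median 0.45). SLC7A5, which carries large neutral amino acids, was 5.81-fold higher at 161 in F5 against 27.7 in 6 mm (5.31 to 6.37). SLC38A1 and SLC38A2, which carry glutamine and other small neutral amino acids, were at 7.11 and 44.0 in F5 against 1.00 and 20.8 in 6 mm, and SLC7A3, a carrier of cationic amino acids, at 33.3 in F5 and 14.3 in 6 mm. Secretory pathway and folding genes had a median of 0.29, with 4 of 82 (4.88%) higher and 1 (1.22%) lower, both below the shares over all genes. HERPUD1, a component of endoplasmic reticulum-associated degradation, was at 134 in F5 and 34.9 in 6 mm, and SEC61A2, a channel subunit, at 98.0 in F5 and 24.6 in 6 mm. Of 49 ion channel genes 5 (10.2%) were higher and 6 (12.2%) lower (median -0.37), close to the 7.64% and 10.8% over all genes. KCNAB1, a potassium channel subunit, was at 30.4 in F5 and 1.73 in 6 mm, the background potassium channel KCNK2 was 6.01-fold lower at 28.1 in F5 against 169 in 6 mm (5.68 to 6.36), and SCN3B, a sodium channel subunit, at 0.993 in F5 and 17.3 in 6 mm.

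Hyaluronan and proteoglycan genes were found on both sides. Of 41 genes 9 were at least 2-fold higher and 11 lower, with a median of 0.01 that changed sign under 3 scalings. NDST1, which begins the sulphation of heparan sulfate, was at 218 in F5 against 31.2 in 6 mm, 6.995-fold higher (6.71 to 7.30), and SULF1, which removes sulfate from it, at 35.0 in F5 and 3.96 in 6 mm. The sulfotransferases CHST2, CHST3 and CHST8 were at 34.8, 9.23 and 7.06 in F5 against 5.70, 1.05 and 1.03 in 6 mm. The enzymes SULF2 and HS6ST1, which act on heparan sulfate, were lower, at 10.98 and 12.3 in F5 against 25.9 and 29.6 in 6 mm. Of the core proteins, AGRN was 4.25-fold lower at 17.1 in F5 against 72.7 in 6 mm (3.95 to 4.57), SDC4 at 39.9 in F5 and 154 in 6 mm, and GPC1 at 1.26 in F5 and 12.5 in 6 mm. FMOD, a small collagen-binding proteoglycan, was higher with 58.8 in F5 and 10.8 in 6 mm. Secreted proteases and inhibitors had 15 of 48 (31.2%) lower and 4 (8.33%) higher (median -0.58), against 10.8% and 7.64% over all genes. The higher ones were inhibitors or related proteins, TFPI2 at 2503 in F5 and 1182 in 6 mm, WFDC1 at 195 in F5 and 92.9 in 6 mm, SERPINF1 at 42.3 in F5 and 18.6 in 6 mm and ADAMTSL2 at 145.5 in F5 and 59.4 in 6 mm. The proteases MMP28 and PLAU were at 0.446 and 1.64 in F5 against 13.5 and 28.2 in 6 mm.

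Axon guidance genes, which steer cell migration and contacts, had 7 of 32 members at least 2-fold up in F5 and 3 at least 2-fold down, with a median of 0.45 that changed sign under 1 scaling. PLXNA1, a semaphorin receptor, was at 126 in F5 and 37.3 in 6 mm, and the semaphorins SEMA4G and SEMA6A were at 123 and 46.1 in F5 against 40.6 and 13.9 in 6 mm. DPYSL3, a cytoskeletal protein downstream of semaphorins, was at 51.7 in F5 and 6.46 in 6 mm, and EPHB2, an ephrin receptor, at 13.1 in F5 and 2.39 in 6 mm. PLXNC1 was lower at 10.5 in F5 and 38.9 in 6 mm. Oxidant defence genes had 3 of 44 (6.82%) higher and 8 (18.2%) lower (median -0.40), against 7.64% and 10.8% over all genes. GPX3, a secreted glutathione peroxidase, was 3.61-fold lower at 206 in F5 against 744 in 6 mm (3.47 to 3.76), SOD3, an extracellular superoxide dismutase, at 1.73 in F5 and 54.4 in 6 mm, and HPGDS, a prostaglandin D synthase, at 0.413 in F5 and 35.0 in 6 mm. Complement, interferon and innate immunity genes had 1 of 28 (3.57%) higher and 10 (35.7%) lower (median -0.41). CFD, a complement protease, was at 0.428 in F5 and 27.7 in 6 mm, and LGALS1, a galectin, at 1.28 in F5 and 28.3 in 6 mm.

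In the files' own annotation, terms with 10 to 400 genes compared were ranked by the share at least 2-fold higher in F5 minus the share lower. There were 3182 such GO terms and 514 Interpro terms. Those given are from the ends of the ranking, many hold few genes, and none was tested. Over all genes, 7.64% were higher and 10.8% lower. Among GO terms the higher end held several transporter terms. Glucocorticoid metabolic process had 5 of 12 genes higher and 0 lower; among those named, STAR supplies cholesterol to the steroid enzymes, and WNT4, DKK3 and BMP2 are signalling proteins. Neutral amino acid transmembrane transporters had 4 of 12 higher and 0 lower, and monocarboxylic acid transporters 6 of 13 higher and 2 lower, with SLC16A1, a carrier of lactate and pyruvate, at 209 in F5 and 50.4 in 6 mm. Photoperiodism had 4 of 11 higher and 0 lower, with USP2 at 29.9 in F5 and 3.41 in 6 mm and the clock repressor CRY2 at 99.0 in F5 and 39.1 in 6 mm. Phosphatidylinositol phospholipase C activity had 4 of 12 higher, with PLCD4 at 36.4 in F5 and 3.01 in 6 mm. The lower end held terms of adhesion and matrix and others. Laminin binding had 7 of 10 genes lower and 0 higher, collagen trimer 21 of 33 lower and 4 higher, fibroblast growth factor binding 5 of 10 lower and 0 higher, renal system vasculature development 6 of 10 lower and 0 higher, and cGMP metabolic process 6 of 13 lower and 0 higher. The collagen term holds genes of the theca and smooth muscle list, whose lower level in F5 is given above.

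Of 26 enzyme classes taken from the KEGG text, chosen after the file was seen, sulfotransferases and ester hydrolases led on the higher side. The shares over all genes were 7.64% higher and 10.8% lower. Sulfotransferases had 6 of 12 genes higher and 2 lower, with TPST1, which sulfates tyrosines of secreted proteins, at 129 in F5 and 12.5 in 6 mm. Carboxylic ester hydrolases had 8 of 21 higher and 3 lower. Glycosidases had 5 of 26 higher and 3 lower, with GALC, which degrades galactosylceramide, at 275 in F5 and 20.2 in 6 mm. The sialyltransferase class had 4 of 11 lower and 0 higher, with ST6GAL2 at 1.21 in F5 and 9.80 in 6 mm, and metalloendopeptidases 8 of 22 lower and 2 higher. Among Interpro domains, mitochondrial carriers had 7 of 23 higher and 0 lower, with the citrate carrier SLC25A1 at 147 in F5 and 27.9 in 6 mm and the glutamate carrier SLC25A22 at 150.1 in F5 and 38.2 in 6 mm. The B-class cytochrome P450 domain had 7 of 15 higher and 3 lower. The C1q domain had 11 of 16 lower and 1 higher, the metazoan homeodomain 10 of 20 lower and 0 higher, and intermediate filaments 10 of 20 lower and 2 higher. No lower homeodomain gene with a symbol reached an FPKM of 5 in either library, and 0 were 4-fold lower. Among all genes, the tenth with the lowest level had 23.5% at least 2-fold lower. In terms of at least 50 genes, chosen after the values were seen, organic acid transmembrane transporters had 15 of 50 higher and 3 lower, steroid biosynthetic process 12 of 53 higher and 6 lower, and extracellular matrix components 24 of 58 lower and 4 higher. Other large terms held no gene past 2-fold in either direction, among them the respiratory chain (50 genes), the large ribosomal subunit (54), ATP-dependent helicases (63) and protein acetyltransferase complexes (72).

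Genes far higher in F5 had a gene of the same kind nearby more often than all genes did. This pattern was looked for after the values were seen. Of 232 placed genes at least 4-fold higher, 100 (43.1%) had another such gene within 250 kb, against 19.8% of all 11405 placed genes with such a gene near. Leaving out neighbours closer than 10 kb, the shares of the 250 kb window were 32.8% of the 4-fold higher genes and 18.3% of all genes. For 230 placed genes at least 4-fold lower, the shares within 250 kb with all neighbours kept were 21.7% of the lower genes and 19.7% of all genes. Leaving out neighbours closer than 10 kb, they were 17.4% and 18.4%. Within 100 kb, 36.6% of the higher genes had such a neighbour against 10.7% of all genes, and 17% of the lower genes against 9.94% of all. Within 500 kb the shares were 52.2% of the higher genes against 30.2% of all, and 38.3% of the lower genes against 30.7% of all. The sources used here do not say whether reads were counted by strand, so reads of overlapping or adjoining genes cannot be told apart. CYP11A1 overlaps CCDC33 on the other strand, and SESN2 overlaps ENSGALG00000026084 on the other strand. INHA, the inhibin alpha subunit (chromosome 7, 21555004 to 21556682), has GJD3 as the nearest gene compared. GJD3, whose symbol comes from the KEGG text, lies 1.59 kb away at 96.6 in F5 and 6.40 in 6 mm. OBSL1 lies 1.81 kb from INHA at 45.0 in F5 and 3.06 in 6 mm, and TMEM198 14.4 kb away at 38.5 in F5 and 3.98 in 6 mm. IHH lies 247 kb from INHA, and DES, a muscle filament protein, lies 114 kb from it and was lower at 0.157 in F5 and 61.7 in 6 mm. Around CYP11A1 lie STRA6, 25.0 kb away, C15orf39, at 279 in F5 and 25.9 in 6 mm, and LOXL1, 218 kb away. Around PGF (chromosome 5, 37393657 to 37400127) lie NPC2, LTBP2, at 31.5 in F5 and 4.45 in 6 mm, and JDP2, a repressor of AP-1, at 148 in F5 and 33.7 in 6 mm. Between PGF and JDP2 lies FOS, a subunit of AP-1, which was lower at 8.87 in F5 and 40.1 in 6 mm. Within 300 kb of each of these genes and of SESN2 most others stayed within 2-fold. Leaving out the named gene itself, of 28 genes around INHA 6 were at least 2-fold higher and 3 lower, of 37 around CYP11A1 6 and 3, of 28 around PGF 8 and 2, and of 35 around SESN2 3 and 2. Over all genes 7.64% were higher and 10.8% lower. The share of higher genes around SESN2 is close to the former, and no locus had a larger share of lower genes than the latter. The loci were chosen after the values were seen, so their counts of higher genes do not check the pattern.

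**Figure D5:**
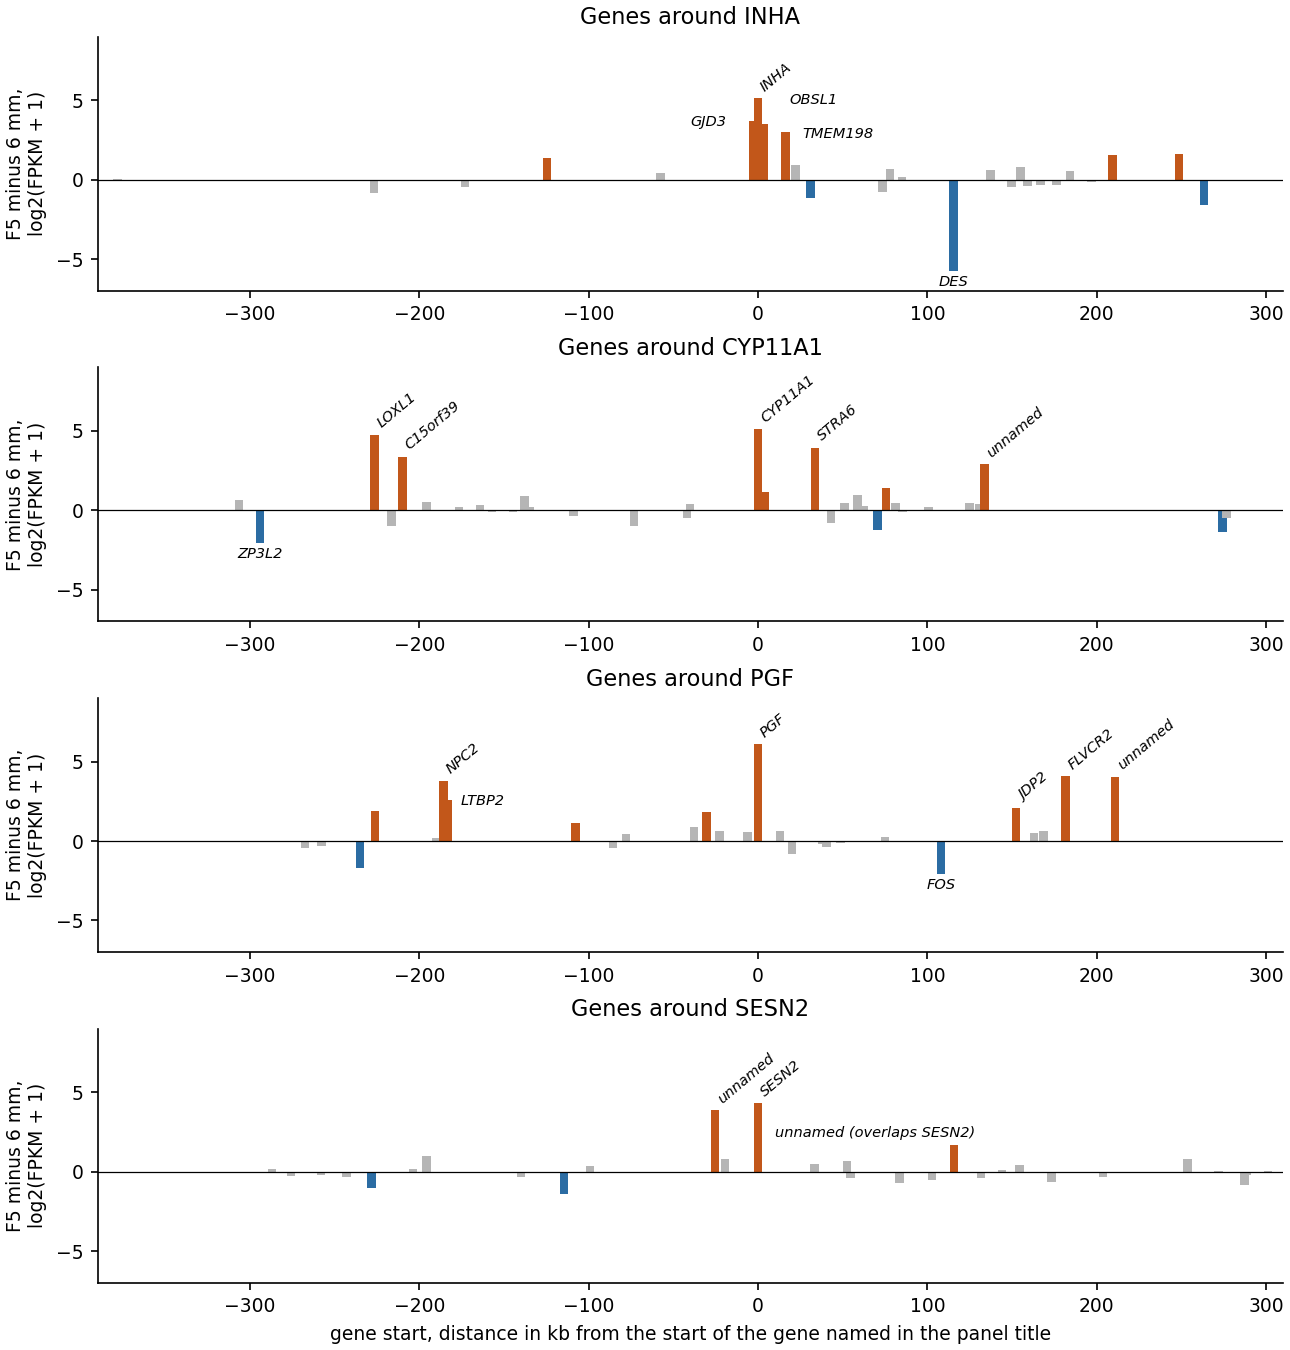
Difference of log2(FPKM + 1), F5 minus 6 mm, of the genes around INHA, CYP11A1, PGF and SESN2, placed by the distance in kb of the gene's start from the start of the named gene. Names mark genes at least 4-fold different; orange bars are at least 2-fold higher, blue bars at least 2-fold lower and grey bars within 2-fold.

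The share of genes past 2-fold varied between chromosomes, against 7.64% higher and 10.8% lower over all genes. Chromosomes 17, 24, 28 and 10 are given for their high or low shares of higher genes, and none was tested. Chromosome 17 had 13.5% of 266 genes at least 2-fold higher and 7.89% lower, and chromosome 24 had 14.9% of 148 higher and 17.6% lower. Chromosome 28 had 1.87% of 214 genes higher and 11.2% lower, and chromosome 10, which carries CYP11A1, 2.95% of 339 higher and 11.2% lower. The lower share of both is close to that over all genes. The Z chromosome had 10.9% of 540 genes higher and 14.3% lower.

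The most abundant genes without a symbol that differed at least 2-fold reached high levels. The gene ENSGALG00000013409, described in the files as digestive cysteine proteinase-like (chromosome 23, 2028529 to 2029895), was at 9913 in F5 against 682 in 6 mm, 14.5-fold higher (14.2 to 14.9). It lies 23.9 kb from SESN2, and the files hold another entry of the same description, so reads of these copies could be split between them. Novel00781, described as collagen alpha chain-like (chromosome 27, 4434579 to 4441185), was at 12623 in F5 against 3741 in 6 mm, 3.37-fold higher (3.36 to 3.39). On the lower side, ENSGALG00000027090 (chromosome 4, 85449698 to 85458910) was at 52.2 in F5 against 15515 in 6 mm, 297-fold lower (290.4 to 305). ENSGALG00000023172, described as low-density lipoprotein receptor-related protein-like (chromosome 4, 48984184 to 48996527) was at 117 in F5 against 659 in 6 mm, 5.62-fold lower (5.51 to 5.73).

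For genes that stood out in F5, the level in F1 shows that some were highest in F5 and others were higher still in F1. CEL, the lipase, had no reads in 6 mm, 305 in F5 and 2.82 in F1, and WNT4 stood at 141 in 6 mm, 1885 in F5 and 14.3 in F1. CYP26A1 stood at 4.12 in 6 mm, 60.9 in F5 and 2.77 in F1, and IGF2 at 50.2 in 6 mm, 131 in F5 and 6.34 in F1. SLC7A5 was likewise lower in F1 than in F5, at 23.1 in F1. Higher in F1 than in F5 were CTSA, at 462 in 6 mm, 3197 in F5 and 6981 in F1, KCNH2, at 0.936 in 6 mm, 139 in F5 and 312 in F1, STRA6, at 9.08 in 6 mm, 153 in F5 and 340.0 in F1, and DMRT2, at 0.859 in 6 mm, 15.3 in F5 and 144.5 in F1. HTRA1, lower in F5 than in 6 mm, was at 16.4 in 6 mm, 0.362 in F5 and 37.2 in F1.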

How the data were processed

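Granulosa RNA of F5, 6 mm and F1 follicles was measured in 1 library per stage. The authors deposited FPKM values per gene, with position, gene name, GO, KEGG and Interpro columns. TopHat2 2.0.12 aligned the reads and HTSeq 0.6.1 counted them, per the submitters' processing notes. The sources used here name no genome build, so coordinates are those of the files. Symbols came from the gene name column, or, for 390 genes, from the KEGG column. They were matched to NCBI RefSeq's table for GRCg7b, used for symbols only. Where entries shared a symbol, the one with a gene name and then the higher level was taken. Some GO names are not analysed here.

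FPKM values were whole multiples of the worth of 1 read, with a largest relative deviation of 1.91e-14, which gave the library totals. The smallest whole reads came to 93.8% (F5) and 94.7% (6 mm) of these, so intervals are slightly too wide. Exact 95% intervals and the floor of 3 reads cover counting error only. Differences are of log2(FPKM + 1) at a filter of FPKM 1, with Python 3.11.15, numpy 2.4.6, pandas 2.3.3 and scipy 1.17.1. The calculation was tested on simulated data.

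The gene lists were chosen with earlier results of these data known. Named were the 30 largest differences in each direction at an FPKM of at least 10 with a symbol, 19 anchor genes of follicle selection, up to 6 members per list and direction and up to 4 per term at an FPKM of at least 5, and 2 unnamed genes per direction. A few further genes were chosen after their values were seen: the neighbours of INHA, CYP11A1 and PGF, SULF2, and the markers with no reads in F5. No term of the KEGG column reached 10 genes, so enzyme classes were used. Alternatives were pseudocounts of 0.1 and 5, other filters, scalings and a call by the counting interval.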

Additional observations from a re-analysis of the deposited data

How the results depend on the processing

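No paired analysis was possible because each stage had 1 library. With a pseudocount of 5, the 2-fold counts were 482 higher and 456 lower in F5, and the 4-fold counts 138 and 69, so the excess of lower genes was lost. With a pseudocount of 0.1, the 4-fold counts were 492 higher and 781 lower. A filter at FPKM 5 left 834 genes at least 2-fold lower. Scaling to the same sum of FPKM, which also raises values against the pseudocount and the filter, gave 2412 genes at least 2-fold lower and 491 at least 4-fold lower, and moved the median of all genes to -0.34. At the geometric mean of the sums, chosen after seeing the data, that median was -0.31. It was -0.25 without the 10 most abundant genes and 0.00 after median-ratio scaling, against -0.13 as deposited. Calling genes by the counting interval gave 378 at least 4-fold lower. The other 34 values of these counts stayed within 1.5 times. Of 84 medians of lists and terms, 52 moved by more than 0.25 in at least 1 setting and 32 in none. Low levels, and 1 library per stage, limit these counts: the 1262 genes of lowest level held 296 of the genes 2-fold lower.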
